A study of Myzus persicae with 4 samples.

Results

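The head transcripts described here are 44 contigs of the aphid Myzus persicae that gave more signal on a nicotine diet in replicates 1 and 2 and less in replicate 3. A contig is an assembled transcript sequence, known on this array by a number alone. The 44 were chosen by their measured ratios, so the ratios are a description and were given no test. Of 10295 contigs on the array, 7554 had a probe that passed the filter on dim signal. The filter kept a probe if, in each replicate, the scanner had marked 1 channel or both as well above background. For each probe the log2 ratio of nicotine over control was taken from the processed signals and centred on the array's median, and the probes of a contig were averaged. A contig was selected if the log2 ratio was 0.7 or more in replicates 1 and 2 and -0.7 or less in replicate 3. The 44 selected contigs made up 0.582% of the 7554.

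The RNA came from dissected heads of aphids moved from cabbage to liquid diet. All groups received sucrose and 20 amino acids, and the nicotine groups also received 100 µM nicotine. Heads were taken after 24 h of feeding. The 6 RNA samples formed 3 biological replicates of 1 nicotine and 1 control sample each, and a technical repeat array was made for replicate 2. On each 2-colour array the nicotine RNA carried one dye and the control RNA the other. Nicotine RNA was labelled with Alexa Fluor 555 (green) in replicates 1 and 3 and with Alexa Fluor 647 (red) in replicate 2 and its repeat. The labels do not give the aphid clone, the number of heads per sample or whether the replicates came from separate cages.

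Myzus persicae is a sap-feeding insect with a form adapted to tobacco. Nicotine, the main alkaloid of tobacco, opens nicotinic acetylcholine receptors, the ion channels that carry fast excitation in the insect central nervous system. Insects are known to limit its action by breaking it down, chiefly with cytochrome P450 enzymes, and by exporting it. The head of an aphid holds the brain, eyes, antennae and mouthparts, and preparations of it can carry salivary and other soft tissue. None (0) of the 10295 contig names matched a gene table for this species, so neither the function of the 44 contigs nor markers of head tissue could be read.

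Across all 7554 contigs the replicates did not follow each other. Log2 ratios correlated at -0.25 between replicates 1 and 2, at -0.21 between replicates 1 and 3 and at -0.42 between replicates 2 and 3. These are descriptions across contigs, which share arrays and are not independent. A limma fit with Benjamini-Hochberg adjustment over 3 replicates called 0 of 7554 contigs (0%) at the adjusted threshold of 0.05, with 28 at an unadjusted p under 0.05. Signal was well above background for 73.9% to 86.5% of contig probes in the 8 channels, and median signal of the passing probes lay between 713.7 and 990.6 units. The number of arrays limits the precision of every ratio below.

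The 44 contigs were higher on nicotine in replicates 1 and 2 and lower in replicate 3 by design of the selection, but they differed widely in size. The median log2 ratio was 1.48 in replicate 1, with a range from 0.70 to 3.80. In replicate 2 the median was 1.55 and the range ran from 0.75 to 4.20. In replicate 3 the median was -2.32, from -4.28 to -0.77. Over all contigs the medians were -0.002, -0.009 and 0.01. Ratios as large in the same direction were found in 4.63% of all contigs in replicate 1, in 16.4% in replicate 2 and in 19.4% in replicate 3. The rule used these 3 contrasts, so nothing is read from the shares.

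Replicate 3 held the largest of the 3 ratios in size for 21 contigs, replicate 2 for 15 and replicate 1 for 8. Replicate 3 held the smallest for 11 contigs. The ratio was larger in replicate 2 than in replicate 1 for 29 of the 44. The mean over the 3 replicates was above 0 for 33 contigs and below 0 for 11, and its median was 0.30, from -0.49 to 1.71. The median SD between replicates was 2.37, against 0.55 over all contigs, and the SD exceeded the size of the mean in 44 of 44. Opposite signs are required by the rule, so the large spread is a property of the choice.

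**Figure D1:**
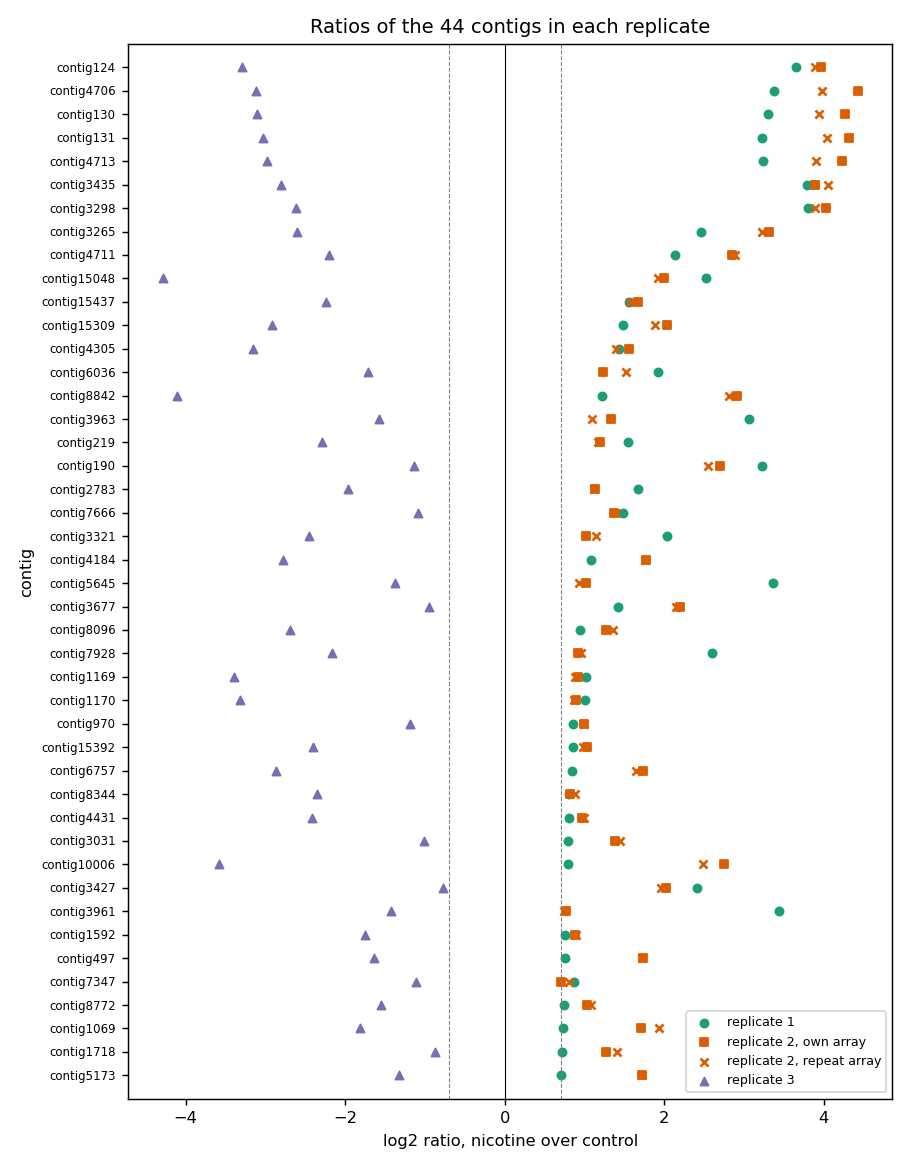
Log2 ratio of nicotine over control (horizontal axis) for each of the 44 contigs (vertical axis), with 1 symbol per replicate and separate symbols for the own and the repeat array of replicate 2. Dashed lines mark 0.7 and -0.7. The top 9 contigs lie past 2 in size in every replicate, and replicate 3 (triangles) ranges from -4.28 to -0.77.

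Of the 7554 contigs, 9 (0.119%) were past 2 in size on the log2 scale in every replicate with these signs. This group of 9 was set apart after its values were seen. It comprised contig124, contig4706, contig130, contig131, contig4713, contig3435, contig3298, contig3265 and contig4711. Their median log2 ratios were 3.31, 3.97 and -2.97 in replicates 1, 2 and 3. The other 35 had medians of 1.08, 1.34 and -1.97. Only 5 of the 9 were still past 2 in every replicate after normexp and loess, and the same 5 in the authors' deposited table, since contig124, contig3435, contig3298 and contig4711 fell short in replicate 3. With dim channels raised to the lowest signal that was well above background, 7 of the 9 stayed past 2.

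Contig130 gave processed signals of 43249 on nicotine and 4408 on control in replicate 1. In replicate 2 the signals were 13261 and 718.9 on its own array and 10748 and 730.9 on the repeat array. In replicate 3 they were 49.1 and 408.0. The 3 control samples therefore lay between the nicotine samples of replicates 2 and 3, and the diet groups overlapped. The log2 ratios were 3.31, 4.11 and -3.11, which gave a mean of 1.43 ± 3.96 (SD, n = 3).

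Contig4706 read 42447 and 4130 in replicate 1, 14800 and 719.8 in replicate 2 and 49.2 and 410.7 in replicate 3, nicotine first. Contig4713 read 43451 and 4644, then 14388 and 800.8, then 53.6 and 404.8. Contig131 read 41388 and 4437, then 13652 and 713.2, then 56.0 and 441.5. These 3 contigs followed contig130 sample by sample. Their log2 ratios were 3.37, 4.20 and -3.12 for contig4706, 3.24, 4.07 and -2.97 for contig4713 and 3.23, 4.19 and -3.04 for contig131. The files give no sequence, so whether these 4 contigs come from 1 gene or share probe sequence was not tested.

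Contig4711 read 34760 and 7972 in replicate 1, 11770 and 1701 in replicate 2 and 76.4 and 337.3 in replicate 3. Its log2 ratios of 2.13, 2.87 and -2.20 were the smallest of the 9 in size in each replicate. Contig3265 read 3056 and 559.5, then 2393 and 252.0, then 174.8 and 1020. Unlike the other 8, contig3265 had more signal in control 3 than in control 1. Its log2 ratios were 2.46, 3.27 and -2.60.

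Contig124, contig3435 and contig3298 were not well above background in the nicotine channel of replicate 3, so their ratios there are bounds. Contig124 read 11500 and 919.2 in replicate 1, 1485 and 99.0 in replicate 2 and 14.6 and 137.6 in replicate 3. Its log2 ratios were 3.66 and 3.93 in replicates 1 and 2, and it was at least 4.17-fold lower on nicotine in replicate 3 (measured log2 ratio -3.30). Such a bound sets the dim signal to the lowest signal that was well above background in that channel, or keeps the measured signal where that is higher. Some dim signals lie above that lowest signal, so "at least" refers to a working bound and not to a strict limit. Contig3435 was at least 2.80-fold lower in replicate 3 after ratios of 3.79 and 3.97. Contig3298, with ratios of 3.80 and 3.96, was at least 1.28-fold lower in replicate 3, where it read 7.13 on nicotine and 42.1 on control. At that bound contig3298 no longer passes the threshold of 0.7.

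Contig15048, contig15437 and contig15309 followed by the smallest of the 3 ratios in size. Contig15048 read 3349 and 586.1 in replicate 1, 15892 and 4169 in replicate 2 and 267.2 and 4999 in replicate 3. Its nicotine sample was highest in replicate 2, not in replicate 1, and its control signal was lowest in replicate 1. The log2 ratios were 2.53, 1.96 and -4.28, the last being the lowest of all 44 in replicate 3. Contig15437 had ratios of 1.56, 1.62 and -2.24, and contig15309 had 1.48, 1.96 and -2.91.

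Ratios near the threshold show where the list ends. Just inside lay contig5173 at 0.70, 1.72 and -1.33, and contig1718 at 0.72, 1.34 and -0.88. Just outside lay contig4620 at 0.93, 0.6995 and -1.0 and contig3808 at 2.62, 0.69 and -2.11. The smallest ratios of those 4 contigs lie close together, while the own and repeat arrays of replicate 2 differed by up to 0.44 for 1 of the 44. At any size, 1157 contigs had the same signs as the 44.

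**Figure D2:**
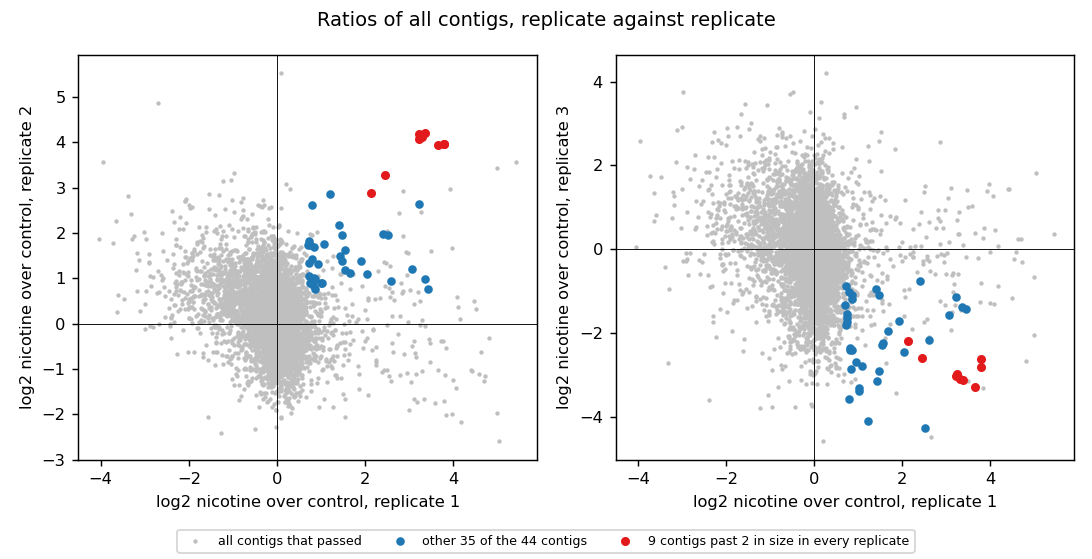
Log2 ratio of nicotine over control in replicate 1 (horizontal axes) against replicate 2 (left) and replicate 3 (right), 1 point per contig that passed the filter. The 9 contigs past 2 in every replicate (red) have medians of 3.31, 3.97 and -2.97. They overlap with the other 35 (blue) in replicates 1 and 3 but not in replicate 2, where their lowest ratio is 2.874 and the highest of the 35 is 2.862. In single replicates they overlap with the rest (grey).

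Signal strength varied widely among the 44. The mean log2 signal over the 8 channels ran from 5.85 to 14.57 with a median of 9.86, against a median of 9.52 over all contigs. The brightest, contig15392, read 45696 and 25516 in replicate 1, 33289 and 17092 in replicate 2 and 5499 and 28013 in replicate 3. All its signals were far above background, and its log2 ratios were 0.85, 1.01 and -2.41. The dimmest, contig6036, read 171.5 and 45.6, then 109.1 and 48.8, then 18.0 and 56.5. Its control in replicate 1 and its nicotine sample in replicate 3 were not well above background. It was thus at least 2.89-fold higher in replicate 1 and at least 1.71-fold lower in replicate 3. Both its channels were well above background on only 1 of the 4 arrays. No member probe (0) was saturated.

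A channel was dim throughout a replicate, meaning on both arrays for replicate 2, in 9 of the 44 contigs. Beyond these, contig3963 and contig1069 had a dim channel on 1 array of replicate 2. Some of the 9 had a dim channel there too. The control was not well above background in replicate 1 for 6 and the nicotine sample in replicate 3 for 5. With these channels set to their bounds, 42 of 44 stayed past the threshold, and contig3298 and contig190 did not. In replicate 1 the dim controls of contig7347 and contig190 read 71.3 and 62.4. Both were above 59.7, the lowest signal well above background there, so the bound left these 2 ratios as measured. Contig190, contig7347, contig3963 and contig1069 were named after their values were seen. Both channels were well above background on all 4 arrays for 33 contigs (75%), against 6873 of 7554 (91.0%) overall.

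Spots of the 44 lay between rows 4 and 192 and columns 1 and 82 of a grid of 192 by 82. The direction in each replicate rests on the dye labels. Replicates 1 and 3 carried the same dye orientation and their ratios correlated below 0, and the data do not settle whether the labels of both are right. With the sign of replicate 3 turned, the 44 contigs would be higher on nicotine in every replicate, which follows from the rule alone. Replicate 3 would then correlate at 0.21 with replicate 1 and at 0.42 with replicate 2. Replicates 1 and 2 would stay at -0.25, and no turning of signs would make all 3 correlations positive. A label error was not tested.

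The 6 RNA samples were then read separately. A level here is the log2 processed signal minus the median of its array and channel, averaged over both arrays in replicate 2. Levels of a contig are compared between samples, never between contigs. In bulk RNA, fewer cells that hold a transcript and less of it per cell cannot be told apart.

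Nicotine 1 and nicotine 2 held the highest level for most of the 44, and nicotine 3 the lowest. Nicotine 1 was the highest sample for 24 contigs (54.5%, against 11.5% of all contigs) and nicotine 2 for 18 (40.9%, against 11.0%). Nicotine 3 was the lowest for 35 (79.5%, against 21.3%) and control 1 for 8 (18.2%, against 14.3%). The rule favours high nicotine levels in replicates 1 and 2 and low ones in replicate 3, so these shares carry no test. The 3 control levels all lay inside the range of the nicotine levels for 34 of 44 contigs (77.3%), against 2232 of 7554 (29.5%). For the 44, the level range over the 6 samples had a median of 3.69, against 1.03 over all contigs. The rule also favours controls inside the nicotine range and a wide level range, so these figures carry no test either.

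The 9 contigs and the other 35 had different profiles over the samples. In the 9, nicotine 1 was highest and nicotine 3 lowest for every contig. Their median levels were 5.28 in nicotine 1, 2.20 in control 1, 3.63 in nicotine 2, -0.47 in control 2, -4.21 in nicotine 3 and -1.16 in control 3. The controls thus differed between replicates 1 and 3 in the same direction as the nicotine samples. In the other 35, the medians were -0.22, -1.44, 1.44, -0.17, -2.04 and 0.69 in the same order. There the median of control 1 was below that of control 3, an order that the rule favours.

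**Figure D3:**
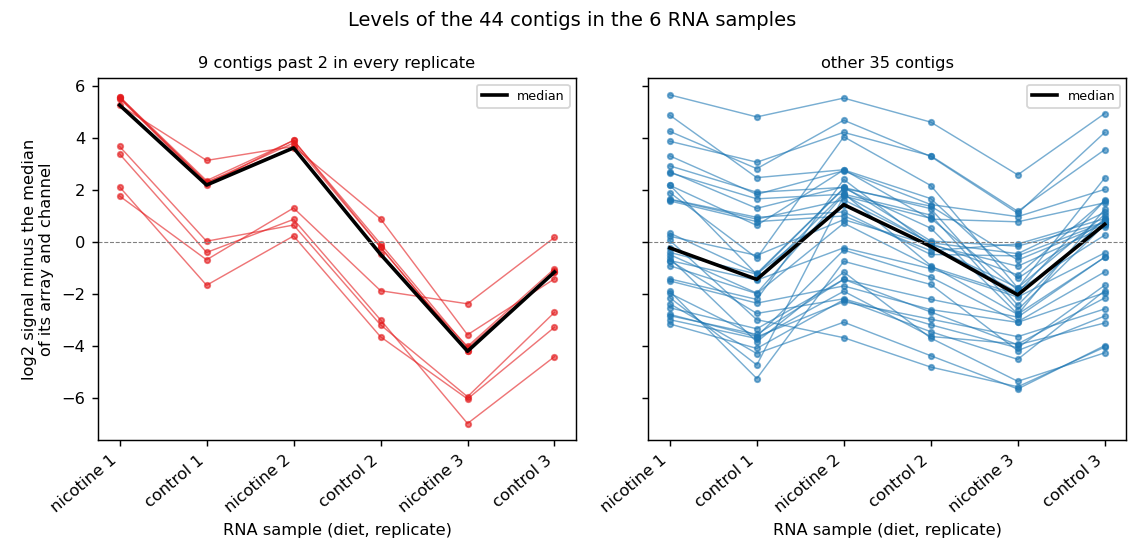
Level (log2 processed signal minus the median of its array and channel, vertical axis) in the 6 RNA samples (horizontal axis) for the 9 contigs past 2 in every replicate (left) and the other 35 (right). Thin lines are single contigs and only join values of 1 contig, and black lines are medians. Control 1 lies above control 3 in 8 of 9 contigs on the left and in 7 of 35 on the right.

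The level in nicotine 1 was above that in nicotine 3 by a median of 9.65 log2 units in the 9 contigs, with a range from 4.16 to 10.40. In contig130, which was well above background in both, nicotine 3 was 898.3-fold lower. The difference was 446.0-fold after normexp and loess, with the mean log2 signal of both channels quantile-normalized between arrays. For the 3 contigs that were dim in nicotine 3 the difference rests on a signal within background. The difference in the other 35 had a median of 2.29, from -0.29 to 5.65, and over all contigs it was -0.05. A difference of 5 or more was found in 16 of 7554 contigs (0.212%), and 11 of the 16 were among the 44. The rule favours a large difference between these samples, so nothing is read from that share. Those 11 were 8 of the 9 contigs, contig3265 being the exception, together with contig3963, contig1169 and contig1170, which were named after their values were seen.

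The rule did not require a direction for the control samples. It constrains the nicotine difference minus the control difference between replicates 1 and 3. A low control 1 and a high control 3 help a contig to pass, so the rule favours a negative control difference. Control 1 minus control 3 had a median of 3.33 in the 9 contigs, from -0.86 to 4.57. In the other 35 it had a median of -1.05, from -5.01 to 1.06, and over all contigs 0.02. Control 1 was 1.5 or more above control 3 in 8 of the 44, while 6.94% of all contigs were. It was 1.5 or more below in 13 of the 44, while 4.49% of all contigs were. The rule favours that direction, so nothing is read from that share. Among the 13, control 1 was dim in contig5645, contig7928 and contig8096, and the -5.01 is that of contig7928. Their differences rest on a signal within background, and they were named after their values were seen. The 8 were all from the group of 9, and the 13 were all from the other 35. Each control is 1 RNA sample, and contigs with near-equal profiles may be the same transcript, which was not tested. These counts are therefore descriptions of contigs, and the group of 9 was set apart after its values were seen. Another setting, chosen after seeing the data, used normexp and loess with the mean log2 signal of both channels quantile-normalized between arrays. The median differences were then 8.37 and 3.01 in the 9 contigs and 2.07 and -0.72 in the other 35, nicotine first. Control 1 minus control 3 fell short of 1.5 in size there for contig3435 (1.21), contig5645 (-1.30), contig8096 (-1.40) and contig1069 (-0.97). For contig4305, also named after its value was seen, it reached -1.72.

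Profiles over the 6 samples were compared with that of contig130 by Euclidean distance of levels centred per contig, over all 7554 contigs. The nearest were contig4713 at 0.14, contig4706 at 0.14, contig131 at 0.39, contig3298 at 0.79, contig4711 at 1.40, contig124 at 1.49 and contig3435 at 1.93. All 7 belong to the group of 9. The next nearest, contig356, was not among the 44 and lay at 3.60, with ratios of 5.0, 3.43 and -0.66. Among the 36 pairs of the 9 contigs the lowest correlation over the 6 samples was 0.74, and it was 0.94 among the 28 pairs without contig3265. Among the 595 pairs of the other 35 the median was 0.73 and the lowest -0.33. The 9 were chosen on ratios of these same samples, which favours like profiles and high correlations among them. The samples of a replicate share an array, and the profiles rest on 6 values each, so these figures are descriptions.

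Contigs with neighbouring numbers did not always move together. Contig1169 had ratios of 1.02, 0.90 and -3.40 and contig1170 had 1.01, 0.89 and -3.32, and their centred levels differed by at most 0.063 in any sample. Contig3961 and contig3963 correlated at 0.43 over the 6 samples, and their centred levels differed by up to 2.50. These pairs were picked for their numbers after the list was known. Whether the contigs of a pair overlap in sequence was not tested.

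Probes of 1 contig mostly kept the pattern, but they differed more than those of all contigs in replicates 1 and 3. Of the 44 contigs, 23 had 2 probes on the array and 20 had 2 probes that passed, so 64 probes measured the set. Both probes passed the threshold alone in 17 of the 20. The median difference in size between the probes of a contig was 0.15, 0.08 and 0.26 in replicates 1, 2 and 3, against 0.07, 0.12 and 0.15 over all 3522 contigs with 2 probes. The largest disagreement was in contig3435, whose probes differed by 0.68, 1.36 and 2.26.

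When contigs were chosen on probe a alone, 19 met the rule, and on the unused probe b 17 of the 19 met it and 19 of 19 kept the signs. The medians on probe b were 1.55, 1.34 and -2.25. Over all 3522 contigs 0.681% met the rule on probe b. Chosen on probe b, 24 met the rule, of which 17 met it on probe a and 23 kept the signs, with medians of 1.92, 1.12 and -2.0 and 0.539% of all contigs meeting it. Both probes read the same RNA, so the agreement is between probes and not between animals.

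The repeat array of replicate 2 gave a like result. With replicate 2 taken from its own array, 46 contigs met the rule, and 44 of them were at 0.7 or more on the repeat array, where 16.8% of all contigs were. All 46 were above 0 there, with a lowest value of 0.46. Their median was 1.48 on the repeat array and 1.47 on the array used to choose them. For the 44 contigs the median difference between both arrays was 0.08, against 0.04 over all contigs.

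**Figure D4:**
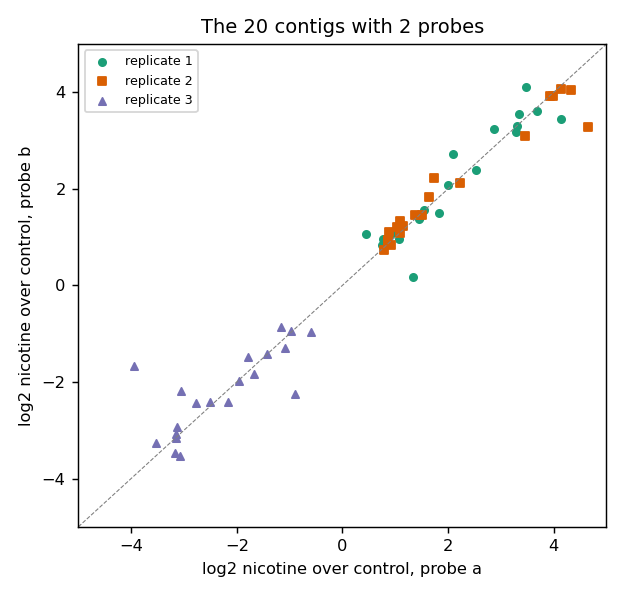
Log2 ratio of nicotine over control on probe a (horizontal axis) and probe b (vertical axis) for the 20 contigs with 2 passing probes, 1 symbol per contig and replicate. The dashed line marks equal values. Both probes pass 0.7 in size with the required signs in 17 of 20 contigs.

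The 44 were not the most frequent sign pattern. Past 0.7 in size in every replicate, whatever the signs, were 315 contigs. Of these, 117 were higher in replicates 2 and 3 but lower in replicate 1. A further 86 were higher in replicate 2 alone, 28 in replicates 1 and 3 alone, 15 in replicate 1 alone and 15 in replicate 3 alone. Higher in all were 10 and lower in all 0. Past 2 in size, by contrast, 9 of 14 contigs were from the 44, 3 were higher in replicate 2 alone, 1 was higher in all and 1 was lower in replicate 1 alone. Of 83 contigs at 0.7 or more in replicates 1 and 2, the 44 were at -0.7 or less in replicate 3, 29 lay in between and 10 were at 0.7 or more. No test of these counts was made, since the pattern was chosen from them.

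The filter left out probes that were below background in both channels of replicate 3, which could not show a ratio there. There were 114 such probes, of 85 contigs, that were well above background in replicates 1 and 2. Of the 114, 100 (87.7%) were at 0.7 or more in both replicates 1 and 2 and 0 were at -0.7 or less in both. Most of the 114 were detected through the nicotine channel, which was well above background for 110 in replicate 1 and 110 on the own array of replicate 2, against 47 and 28 for control. A higher nicotine signal was thus largely built into their detection, and the 87.7% cannot be set against the 127 of 11076 passing probes (1.15%) at 0.7 or more in both. With both channels well above background in replicate 1 and on the own array of replicate 2, 20 of the 114 were left, of which 16 (80%) were at 0.7 or more in both and 0 at -0.7 or less in both. Among 10410 passing probes held to the same requirement, 110 (1.06%) were at 0.7 or more in both. The 20 probes still had to be below background in replicate 3, while the 10410 had to be well above it there in 1 channel or both. These are not like sets, and no test was made. Probes are counted here, and some share a contig, as the 2 of contig254 do.

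The 100 probes stood for 71 contigs. The level was highest in nicotine 1 for 95 of the 100 probes and in nicotine 2 for 5. The probes had to be higher on nicotine in replicates 1 and 2 and below background in replicate 3. A highest level in nicotine 1 or 2 and detection in the nicotine channel were thus largely fixed by the choice. Their median signal was 635.9 in nicotine 1, 122.9 in nicotine 2 and 7.24 in nicotine 3. The medians in the controls were 30.4, 13.5 and 6.64. The nicotine channel was well above background for 100 of 100 in replicate 1, 100 in replicate 2 and 80 on its repeat array. The control channel was so for 35, 20 and 8, so most of these ratios rest on a control signal within background. With dim channels set to their bounds, the median log2 ratios of the 100 were 3.08 in replicate 1 and 1.05 in replicate 2, and 58 stayed at 0.7 or more in both. Of the 71 contigs, 4 had another probe that passed the filter, and only those could be among the 44. Of those 4, 1 was among the 44, contig190, through its other probe. The small overlap is thus largely fixed by the filter.

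The 3 contigs with the brightest of the 100 probes, each given by its brightest probe, were named after their values were seen. Contig448 read 41336 and 7285 in replicate 1, 757.8 and 82.9 in replicate 2 and 6.38 and 5.86 in replicate 3, nicotine first. Contig254 read 36372 and 5033, then 2572 and 225.5, then 6.51 and 6.01. Contig8225 read 28801 and 2261, then 1749 and 106.6, then 6.62 and 6.12. All 3 were bright in nicotine 1 and were not well above background in either sample of replicate 3.

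**Figure D5:**
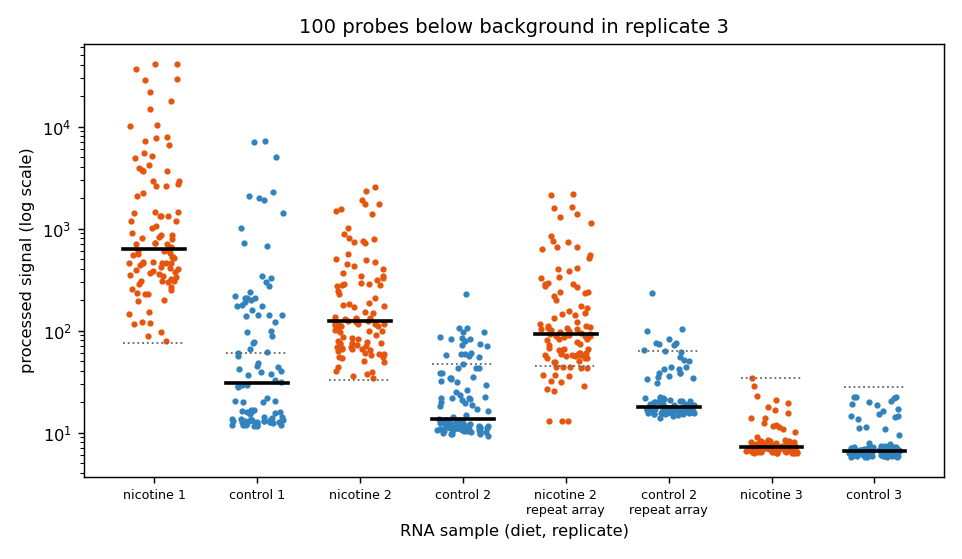
Processed signal (vertical axis, log scale) of the 100 probes in the nicotine (orange) and control (blue) channel of each array (horizontal axis), 1 point per probe. Black bars are medians and dotted lines the lowest signal that was well above background in that channel. The median is 635.9 in nicotine 1 and 7.24 in nicotine 3.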

How the data were processed

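Total RNA of aphid heads was labelled and hybridised to 4 Agilent 2-colour arrays. The deposited scanner files came from Feature Extraction 10.1.1.1 and hold, per the file headers, linear intensity values per spot and channel and processed intensity values after background subtraction, detrending and dye normalization. A further column is a log10 ratio of both processed channels, per the file headers, which was not used in any result. A table of the authors' deposited values agreed in scale and channel order with log2 red over green of the processed signals (r 0.974 to 0.990). Limma is named for it, with no version, in the submitters' processing notes.

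Of 14434 contig probes, 11076 passed the filter and 3358 were left out as dim. Ratios were turned by the dye labels, and the repeat array was averaged with replicate 2. The limma 3.58.1 fit in R 4.3.3 had an intercept only, was two-sided over 7554 contigs and was tested on simulated data. With 3 replicates an exact sign-flip test cannot go below 0.25. P-values and SDs measure the spread between these samples, which the labels do not tie to separate cages. Alternatives used normexp (offset 50) with loess, other thresholds, filters and centring.

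The members and lists were chosen with earlier results of these data known. Named were up to 12 contigs with the largest smallest ratio in size, 2 on each side of the threshold, the brightest, the dimmest and the one whose probes disagreed most. Columns of other samples numbered 0.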

Additional observations from a re-analysis of the deposited data

How the results depend on the processing

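The count of 44 contigs rose to 106 with a threshold of 0.5 and to 75 with no filter on dim probes (40 shared with the 44), and fell to 22 with a threshold of 1. It was 35 with normexp and loess and 37 in the authors' deposited table, each sharing 34 of the 44, and between 38 and 48 under the other 6 settings. The cause of these differences was not tested, apart from fewer or more ratios passing by construction. Signs stayed as in the 44 under loess, where the medians were 1.42, 1.40 and -1.81, and in the authors' deposited table, where they were 1.41, 1.45 and -1.87. The median of the mean over replicates, 0.30 with all 3, ranged from -0.19 to 1.58 when 1 replicate was left out. It was -0.19 without replicate 1, -0.16 without replicate 2 and 1.58 without replicate 3. The sign of the mean is set by which replicates enter, since the rule asks for opposite signs. The limma fit called 0 contigs under the 7 alternatives run, with 24 to 123 contigs at an unadjusted p under 0.05. Each ratio sets a nicotine sample against the control on the same array, so the fit is already paired and a further replicate block adds nothing. With 3 replicates and a repeat array for only 1 of them, array error and differences between animals cannot be told apart in replicates 1 and 3. Low signal limits the ratios of the contigs with a dim channel, which in 9 of them was dim throughout a replicate.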

Other observations

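Probes below background in replicate 1 or 2 were counted in the same way as those below background in replicate 3. Of 1165 probes that were well above background in replicates 2 and 3 but in neither channel of replicate 1, 12 (1.03%) were at 0.7 or more in both replicates and 16 (1.37%) at -0.7 or less in both. In 317 the ratio was higher in replicate 2 and lower in replicate 3, and in 111 the reverse. Of 38 probes in neither channel of replicate 2, 1 was higher in both replicates 1 and 3, 1 lower in both and 21 lower in replicate 1 and higher in replicate 3. Among the 11076 passing probes these 3 counts were 82, 145 and 447. Detection through 1 channel alone can build a ratio into these classes too. The difference between these classes was not tested.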
